A study of Homo sapiens with 12 samples.

Results

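The kinesins described here are all genes whose symbol in the platform annotation is KIF or KIFC followed by a digit, together with KIFAP3, the accessory subunit of kinesin-2. The rule used the symbol alone and no signal, though the members were chosen with earlier results of these data known. On the array 92 of the 54675 probe sets met the rule. They came from 46 of the 19775 genes named by probe sets with 1 symbol. Of these, 13 symbols (19 probe sets) were mitotic kinesins and 16 (40 probe sets) were transport kinesins or their subunit. A further 13 (27 probe sets) had other roles and 4 (6 probe sets) were antisense RNAs that carry a kinesin's name and encode no motor. A symbol stood by its brightest probe set, the one with the highest mean log2 signal over the 12 arrays, and was tested where that mean reached 2.11, the median over all probe sets. In this way 32 symbols could be tested, 12 mitotic, 14 transport, 4 of other roles and 2 antisense, and 53 of the 92 probe sets passed the same limit.

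Kinesins are ATPases that walk along microtubules or shorten them. The mitotic members build and hold apart the spindle, move chromosome arms and complete cytokinesis, and their messages are known to be made mainly in late S phase, G2 and mitosis. The transport members carry vesicles, mitochondria and ciliary components, mostly toward microtubule plus ends, and work in cells whether or not these divide.

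Signal was measured in 22Rv1, an established human prostate carcinoma line, kept in RPMI-1640 medium with serum and antibiotics. Vehicle cells, whose time in culture the labels do not state, were set beside cells exposed for 4 h, 6 h and 16 h to a small molecule, with 3 arrays in each group. The title of the series calls it an inhibitor of ONECUT2, a homeodomain transcription factor, and its dose was not given in the sources used here. A code in the titles of all other arrays is missing from those at 16 h, so time in culture, another difference in handling and the compound cannot be told apart there. Nothing in the labels tells whether the arrays of a group came from separate cultures. The p-values therefore measure only how far these arrays differ among themselves, and that spread could be technical. The same vehicle arrays served for every time.

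Prostate epithelial markers were present: 7 of 9 listed genes, among them KLK3, HOXB13 and KRT8, lay above the unspiked bacterial controls on every array. The other 2 were not analysed here. The summed log2 signal of these 7 genes ran from 54.69 to 55.38 on 16 h arrays and from 57.45 to 57.99 on vehicle arrays. Of 6 neuronal markers, MAP2, SYN1, SNAP25 and TUBB3 lay above the controls, and RBFOX3 and STMN2 lay below them. The list summed to 29.10 to 29.50 on 16 h arrays and 29.24 to 29.81 on vehicle arrays. None of 3 ciliated-cell markers lay above the controls on every array. Of 5 fibroblast markers 3 did, and the list summed to 17.41 to 18.22 on 16 h arrays and 14.94 to 15.95 on vehicle arrays. Of its genes, COL1A1 (2.05 ± 0.20 SE, adjusted p = 1.04e-05) and LUM (1.25 ± 0.18 SE, adjusted p = 0.000217) were higher at 16 h, and COL3A1 (-0.37 ± 0.09 SE, adjusted p = 0.00648) and DCN (-0.58 ± 0.14 SE, adjusted p = 0.0048) were lower. Of 4 leukocyte markers, CD79A alone lay above the controls on every array. The 3' minus 5' log2 difference of the ACTB control, a measure of RNA quality, was 4.09 ± 0.09 on 16 h arrays against 2.80 ± 0.07 on vehicle arrays (SD, n = 3 each, exact two-sided permutation p = 0.1, the smallest that 3 against 3 arrays allow). The 18S control signal was higher by 1.44 at 16 h than on vehicle arrays. At 4 h and 6 h it differed from vehicle by -0.64 and -0.98, so results at those times share an 18S difference too. For GAPDH the same difference was -0.43 ± 0.04 at 16 h and -0.46 ± 0.02 on vehicle arrays (SD, n = 3 each). The prostate and fibroblast sums and the ACTB and 18S controls differed on the same arrays as every 16 h result of the kinesins, and their part in those results was not tested.

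No kinesin gene passed the test at 4 h or at 6 h in the reported fit. With the filter at the 75th percentile of mean signal, 1 mitotic kinesin fell at 4 h. With limma and Benjamini-Hochberg adjustment over 12635 genes at 0.05, 0 of 30 tested kinesin genes were called at 4 h, where 0.459% of all tested genes were. Of the 30, 2 had an unadjusted p under 0.05, beside 1366 of all 12635 tested genes. At 6 h the count was again 0 of 30, against 0.0317% of all tested genes. There 3 had an unadjusted p under 0.05, beside 1039 of all 12635 tested genes. A fit over 27306 probe sets called 0 of the 53 member probe sets at either time (0.293% of all probe sets at 4 h and 0.681% at 6 h). The median log2 change of the mitotic genes was -0.06 at 4 h and -0.08 at 6 h, that of the transport genes 0.02 and -0.01, and that of all tested genes 0.00 and 0.01.

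At 16 h most mitotic kinesins fell. Of 12 tested mitotic kinesins 9 fell and 0 rose, whereas 16.8% of all tested genes fell and 26.0% rose. Of 14 tested transport kinesins 4 rose and 1 fell, shares near or below those of all tested genes. The median log2 change was -0.46 over the mitotic genes, 0.17 over the transport genes and 0.05 over all tested genes. The transport median was 0.07 with quantile normalisation and where probe sets of other classes than _s_at and _x_at were preferred, 0.08 with a gene's probe sets averaged, and 0.11 with no filter or without 16 h replicate 3. On 16 h arrays 1, 2 and 3 the mitotic median lay at -0.46, -0.41 and -0.44 from the vehicle mean, and the transport median at 0.11, 0.17 and 0.29. Every 16 h array thus had the mitotic kinesins below and the transport kinesins above vehicle in the middle of their class on these probe sets. The classes are described by these counts and medians, with no test of one class against the other. Their members were chosen with earlier results of these data known, so the direction of a class is no independent evidence. In 16 h arrays 11 of the 12 mitotic genes lay below all vehicle arrays and 1 above (20.9% and 30.5% of all tested genes), and of the transport genes 6 lay above and 2 below. RNA was taken from whole cultures, so fewer dividing cells and less of these messages per cell cannot be told apart.

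**Figure D1:**
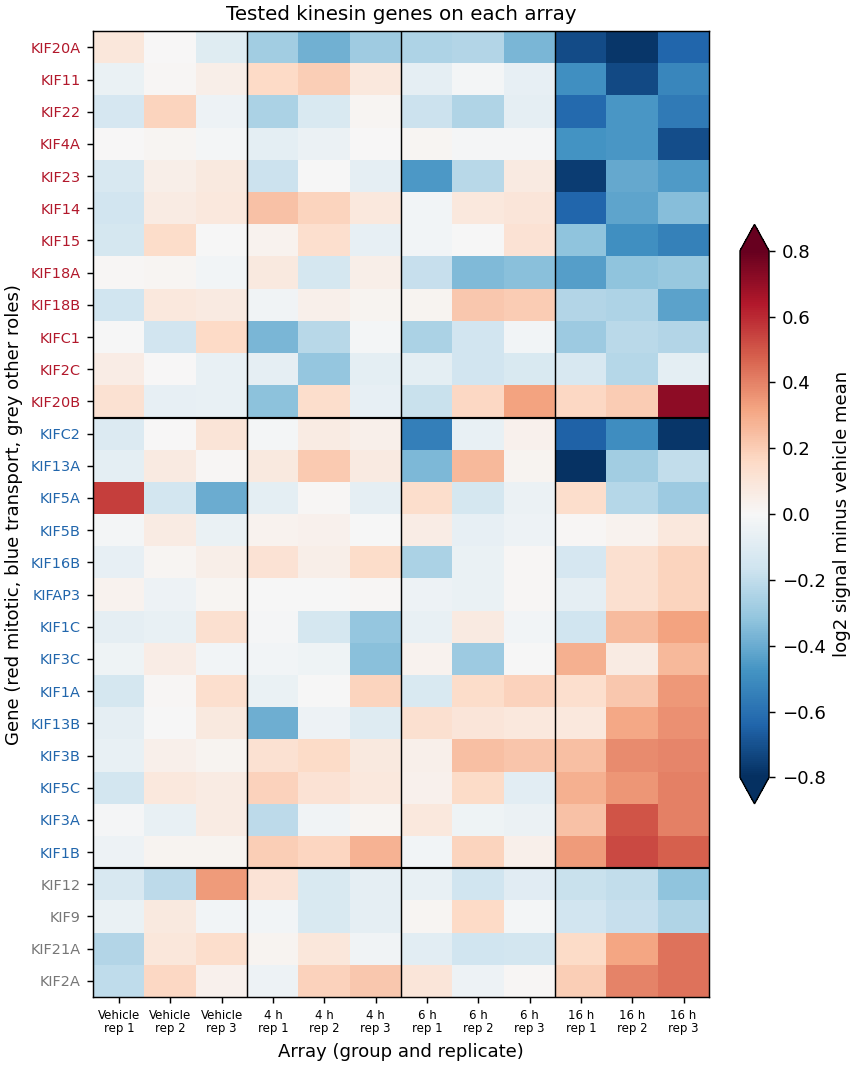
Log2 signal of each tested kinesin gene minus its mean on the vehicle arrays, by gene (rows) and array (columns, vehicle, 4 h, 6 h and 16 h with 3 arrays each); the colour scale ends at 0.8 in both directions. The 16 h columns are blue for most mitotic genes and red for most transport genes, with KIF20B, KIFC2 and KIF13A running against their class.

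**Figure D2:**
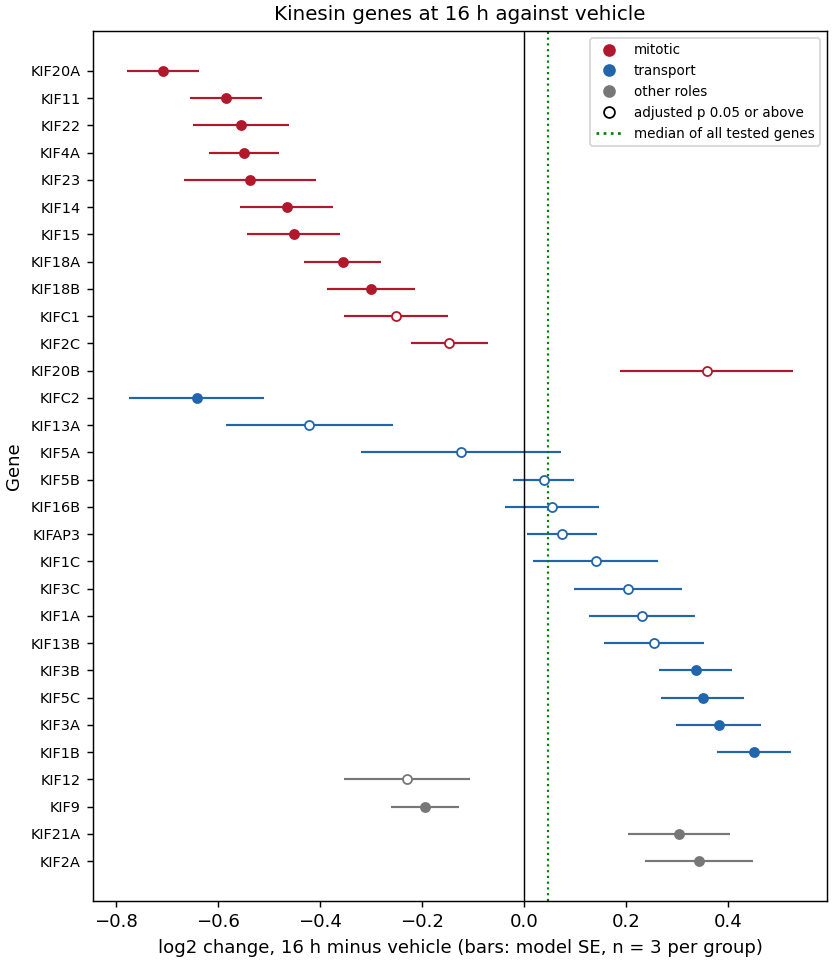
Log2 change of each tested kinesin gene at 16 h against vehicle (points) with the model's standard error (bars), n = 3 arrays per group; open points have an adjusted p of 0.05 or above and the dotted line is the median of all 12635 tested genes. From KIF20A at -0.71 to KIF18B at -0.30 the 9 lowest mitotic genes passed the test, and KIF1B at 0.45 had the largest rise among transport genes.

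The start-site regions of the kinesins that moved together are shown because the mitotic members share words that most promoters lack. RefSeq (GRCh38.p14) gave a sequence of 250 bases before to 50 bases after the start for 34 of the 42 kinesin genes, and each is written 5' to 3' on the gene's strand. Capitals mark 2 kinds of word found on either strand. One is the CHR (TTTGAA or TTCGAA, with TTCAAA on the other strand), known from cell cycle genes as a contact of the DREAM complex. The other is CCAAT, which reads ATTGG on the other strand and is the word of the factor NF-Y. The first 5 belong to mitotic kinesins that fell at 16 h. They are KIF20A at chr5:138178862-138179161, KIF23 at chr15:69414099-69414398, KIF4A at chrX:70289854-70290153, KIF11 at chr10:92592880-92593179 and KIF22 at chr16:29790501-29790800, all on the plus strand. The last 2 belong to transport kinesins that rose, KIF1B at chr1:10210320-10210619 on the plus strand and KIF3A at chr5:132737497-132737796 on the minus strand.
KIF20A: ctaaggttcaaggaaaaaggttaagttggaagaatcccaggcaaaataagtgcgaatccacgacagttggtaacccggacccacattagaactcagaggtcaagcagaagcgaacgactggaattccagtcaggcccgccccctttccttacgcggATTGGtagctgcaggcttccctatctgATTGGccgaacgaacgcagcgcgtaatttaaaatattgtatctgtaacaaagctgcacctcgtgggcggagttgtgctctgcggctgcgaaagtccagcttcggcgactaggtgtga
KIF23: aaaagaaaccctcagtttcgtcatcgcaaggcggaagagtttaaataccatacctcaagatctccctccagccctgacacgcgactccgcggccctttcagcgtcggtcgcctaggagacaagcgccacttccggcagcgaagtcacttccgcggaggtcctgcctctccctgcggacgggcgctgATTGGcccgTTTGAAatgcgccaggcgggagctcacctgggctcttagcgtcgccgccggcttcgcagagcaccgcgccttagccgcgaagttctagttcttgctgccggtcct
KIF4A: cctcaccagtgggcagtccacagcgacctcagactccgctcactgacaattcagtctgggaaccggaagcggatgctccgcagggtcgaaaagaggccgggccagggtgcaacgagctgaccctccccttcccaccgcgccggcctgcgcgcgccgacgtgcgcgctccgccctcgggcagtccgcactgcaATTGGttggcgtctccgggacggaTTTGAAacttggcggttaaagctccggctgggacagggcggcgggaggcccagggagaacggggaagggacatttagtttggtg
KIF11: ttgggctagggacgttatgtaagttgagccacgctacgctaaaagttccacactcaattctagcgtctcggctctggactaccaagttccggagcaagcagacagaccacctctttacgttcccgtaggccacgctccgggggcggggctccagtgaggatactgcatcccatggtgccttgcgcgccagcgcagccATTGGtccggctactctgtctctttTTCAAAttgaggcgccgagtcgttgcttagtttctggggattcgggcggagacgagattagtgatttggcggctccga
KIF22: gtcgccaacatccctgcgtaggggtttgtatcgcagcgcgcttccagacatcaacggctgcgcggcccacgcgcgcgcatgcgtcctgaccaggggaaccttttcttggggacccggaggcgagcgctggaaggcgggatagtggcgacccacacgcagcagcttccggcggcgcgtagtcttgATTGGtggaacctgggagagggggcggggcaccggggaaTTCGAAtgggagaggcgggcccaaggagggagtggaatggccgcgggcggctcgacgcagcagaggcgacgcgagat
KIF1B: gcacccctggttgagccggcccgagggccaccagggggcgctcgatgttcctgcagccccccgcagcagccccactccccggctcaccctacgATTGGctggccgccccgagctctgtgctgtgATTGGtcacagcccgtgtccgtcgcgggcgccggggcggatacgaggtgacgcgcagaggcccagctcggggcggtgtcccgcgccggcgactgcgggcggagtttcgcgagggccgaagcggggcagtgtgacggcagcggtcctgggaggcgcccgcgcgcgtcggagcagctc
KIF3A: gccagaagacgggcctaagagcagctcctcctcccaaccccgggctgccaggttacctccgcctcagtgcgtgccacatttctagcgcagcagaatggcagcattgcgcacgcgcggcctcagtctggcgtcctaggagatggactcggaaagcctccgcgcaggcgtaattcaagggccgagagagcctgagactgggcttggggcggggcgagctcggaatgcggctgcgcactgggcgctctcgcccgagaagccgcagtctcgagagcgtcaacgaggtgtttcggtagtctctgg
In KIF23, KIF4A, KIF11 and KIF22 a CCAAT word stands before a CHR word within a short distance of the start. KIF20A has 2 CCAAT words and no CHR word in its window, KIF1B has 2 CCAAT words alone, and KIF3A has neither. Across the family, a CHR word occurred in 10 of 12 tested mitotic kinesins (83.3%), in 1 of 11 tested transport kinesins with a sequence (9.09%), in 0 of 4 of other roles, and in 16.6% of all 27305 promoters. A CCAAT word occurred in 10 of 12 (83.3%), 3 of 11 (27.3%) and 1 of 4 (25%), against 35.7% of all promoters. Both words were in 9 mitotic genes. The 11 CHR words of the mitotic genes began between 55 bases before and 31 bases after the start, and KIF5B held the 1 transport CHR word. KIF2C, which did not pass on its brightest probe set, had neither word, but KIF20B and KIFC1, which did not pass either, had both. The E2F words TTGGCGC and TTCCCGC, searched on both strands, were in 3 of 12 mitotic and 2 of 11 transport genes (9.33% of all promoters). The ONECUT words ATCAAT and ATCGAT were in 0 of 12 mitotic and 2 of 11 transport genes, KIF1A and KIF5C (7.12% of all promoters). No match of one kind overlapped one of another in the tested genes. A match of letters is not a bound site, and nothing on factor binding was measured.

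Among the spindle motors, KIF11 (Eg5), which slides antiparallel microtubules and pushes the poles apart, had log2 signals of 9.65, 9.71 and 9.75 on vehicle arrays, 9.86, 9.90 and 9.79 at 4 h, 9.63, 9.69 and 9.64 at 6 h, and 9.21, 8.98 and 9.18 at 16 h. Its 16 h arrays lay below every other array, and the 4 h arrays above every vehicle array. The fall at 16 h against vehicle was 1.5-fold (log2 change -0.58 ± 0.07 SE, adjusted p = 5.14e-05), and the 4 h difference did not pass (0.14 ± 0.07 SE, adjusted p = 0.499). KIF15, which keeps the spindle bipolar beside KIF11, read 6.17, 6.46 and 6.31 on vehicle arrays, 6.34, 6.45 and 6.25 at 4 h, 6.29, 6.31 and 6.43 at 6 h, and 5.99, 5.82 and 5.77 at 16 h. Only the 16 h arrays stood apart, below all others, with a log2 change of -0.45 ± 0.09 SE, adjusted p = 0.00191. KIFC1, a minus-end motor that gathers spindle poles, averaged 2.64 ± 0.04 at 16 h against 2.89 ± 0.16 on vehicle arrays (SD, n = 3 each) and did not pass (log2 change -0.25 ± 0.10 SE, adjusted p = 0.0671). Its 16 h arrays lay below all vehicle arrays. It passed without vehicle replicate 2 (-0.33) or 4 h replicate 3 (-0.25), with quantile normalisation (-0.32) and with the replicate number as a block (-0.25).

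Among the motors of chromosomes, KIF4A, a chromokinesin that also works with PRC1 at the central spindle, had 8.85, 8.86 and 8.83 on vehicle arrays, 8.77, 8.80 and 8.85 at 4 h, 8.86, 8.84 and 8.84 at 6 h, and 8.37, 8.38 and 8.14 at 16 h. All earlier and vehicle arrays lay within a narrow band, and the 16 h arrays lay below it (1.46-fold, log2 change -0.55 ± 0.07 SE, adjusted p = 6.67e-05). KIF22 (Kid), which pushes chromosome arms away from the poles, had 7.37, 7.68 and 7.46 on vehicle arrays, 7.25, 7.38 and 7.52 at 4 h, 7.33, 7.26 and 7.43 at 6 h, and 6.88, 7.04 and 6.94 at 16 h. Again the 16 h arrays alone were low, without overlap, and the log2 change was -0.55 ± 0.09 SE, adjusted p = 0.00063. KIF18A, which damps the swings of chromosomes at metaphase, took another course, with 6.21, 6.22 and 6.18 on vehicle arrays, 6.28, 6.06 and 6.25 at 4 h, 6.02, 5.85 and 5.87 at 6 h, and 5.76, 5.88 and 5.90 at 16 h. Both the 6 h and the 16 h arrays lay below all vehicle arrays and overlapped each other. The 16 h change passed (-0.36 ± 0.08 SE, adjusted p = 0.00252), the 6 h change of -0.29 did not (adjusted p = 0.272), and 16 h did not differ from 6 h by the test (-0.07 ± 0.08 SE, adjusted p = 0.504). KIF18B, which shortens astral microtubules, had the smallest fall that passed among the mitotic kinesins (-0.30 ± 0.09 SE, adjusted p = 0.0145). Leaving out vehicle replicate 2, vehicle replicate 3 or 16 h replicate 3 took away the call (log2 change -0.26, -0.26 and -0.24). KIF2C, the centromeric depolymerase MCAK, averaged 7.54 ± 0.07 at 16 h against 7.69 ± 0.06 on vehicle arrays (SD, n = 3 each) on its brightest probe set and did not pass (-0.15 ± 0.08 SE, adjusted p = 0.141). KIF2B, another depolymerase of this group, was too dim to test, at a mean log2 signal of 0.89.

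Among the motors of cytokinesis, KIF20A (MKLP2), which brings the chromosomal passenger complex to the central spindle, had the largest fall among the brightest probe sets of the family, with 7.45, 7.36 and 7.26 on vehicle arrays, 7.08, 6.97 and 7.07 at 4 h, 7.11, 7.12 and 6.99 at 6 h, and 6.64, 6.58 and 6.72 at 16 h. Its 4 h and 6 h arrays all lay below the vehicle arrays, and its 16 h arrays lay below all of those. The 16 h fall was 1.63-fold (log2 change -0.71 ± 0.07 SE, adjusted p = 1.21e-05), and the changes at 4 h (-0.32 ± 0.07 SE, adjusted p = 0.101) and at 6 h (-0.28 ± 0.07 SE, adjusted p = 0.249) did not pass. At 4 h KIF20A was the only mitotic kinesin with an unadjusted p under 0.05 (0.000809 by limma). With the filter at the 75th percentile 1 mitotic kinesin fell at 4 h. KIF23 (MKLP1), the motor of centralspindlin, had 7.38, 7.56 and 7.59 on vehicle arrays, 7.34, 7.51 and 7.44 at 4 h, 7.05, 7.29 and 7.58 at 6 h, and 6.75, 7.10 and 7.06 at 16 h. Its 16 h signals lay below all vehicle and 4 h arrays and overlapped the widely spread 6 h arrays, and the log2 change from vehicle was -0.54 ± 0.13 SE, adjusted p = 0.00552. KIF14, which binds PRC1 and citron kinase at the midbody, had 7.19, 7.41 and 7.43 on vehicle arrays, 7.58, 7.52 and 7.43 at 4 h, 7.32, 7.43 and 7.44 at 6 h, and 6.71, 6.92 and 7.00 at 16 h. Its 16 h arrays were below all others (-0.47 ± 0.09 SE, adjusted p = 0.00151). The second KIF14 probe set, 236641_at, was nearly as bright (mean log2 signal 7.14 against 7.28). It did not pass in the fit over probe sets (-0.27 ± 0.11 SE, adjusted p = 0.077), and its 16 h arrays overlapped the vehicle arrays. In some alternatives it passed, among them quantile normalisation (-0.30). KIF20B (MPP1), a further cytokinesis motor, averaged 3.24 ± 0.31 at 16 h against 2.88 ± 0.11 on vehicle arrays (SD, n = 3 each) on its brightest probe set and did not pass (0.36 ± 0.17 SE, adjusted p = 0.11). The highest of the unspiked controls averaged 2.14 on vehicle arrays.

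**Figure D3:**
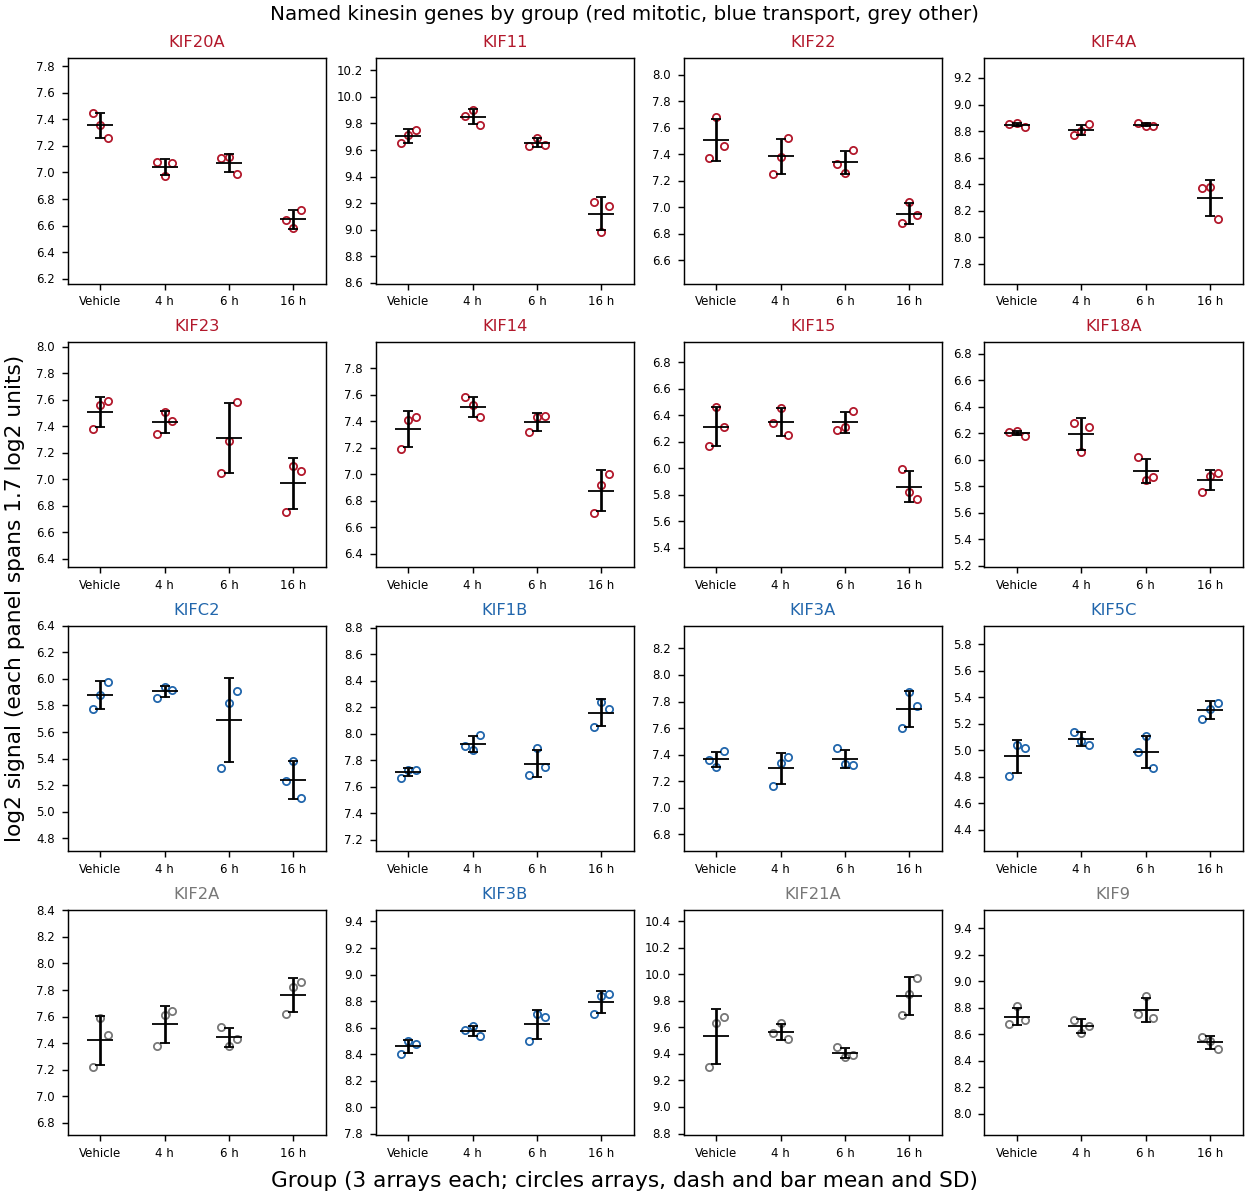
Log2 signal of 16 kinesin genes called at 16 h (panels), by group, with each of the 3 arrays as a circle and the mean with SD as a dash and bar; every panel spans the same number of log2 units. KIF18A lies below vehicle at both 6 h and 16 h and KIF20A at all 3 times, though the earlier differences did not pass the test, and in the KIF4A, KIF14, KIF15 and KIF22 panels the 16 h arrays lie below all others.

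Arrays at 16 h were also set against the earlier treated arrays, in comparisons that share the 16 h arrays. At 16 h against 4 h, 9 mitotic kinesins fell and 0 rose, and of the transport kinesins 6 rose and 2 fell, where 16.1% of all tested genes fell and 24.8% rose. The 6 transport rises became 2 without 16 h replicate 3 and 3 without 16 h replicate 2, 4 h replicate 1 or 4 h replicate 3. The 2 falls became 1 without 4 h replicate 2 or 16 h replicate 1. With 4 h replicate 2, 6 h replicate 1 or 16 h replicate 1 left out, 1 mitotic kinesin rose. At 16 h against 6 h, 7 mitotic kinesins fell and 0 rose, and 4 transport kinesins rose and 1 fell, where 17.6% of all tested genes fell and 25.1% rose. Quantile normalisation gave 2 transport rises and 2 falls. There were 7 rises without 16 h replicate 1, 2 falls without 6 h replicate 1 and 0 falls without 6 h replicate 2 or 3. With quantile normalisation the share of rises among all called genes was 49.2% in place of 60.6% against 4 h and 46.4% in place of 58.8% against 6 h. No kinesin differed between 6 h and 4 h (0 of 30, against 0.0950% of all tested genes). An unadjusted p under 0.05 was seen in 4 of the 30, beside 1187 of all 12635 tested genes.

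Of the transport motors, KIF1B, a carrier of mitochondria and synaptic vesicle precursors, rose most, with 7.67, 7.73 and 7.73 on vehicle arrays, 7.91, 7.88 and 7.99 at 4 h, 7.69, 7.89 and 7.75 at 6 h, and 8.05, 8.24 and 8.19 at 16 h. Signal at 16 h lay above all others, and the 4 h arrays above all vehicle arrays. The 16 h rise was 1.37-fold (log2 change 0.45 ± 0.07 SE, adjusted p = 0.000438), and the 4 h change did not pass (0.22 ± 0.07 SE, adjusted p = 0.299). Its relatives were not called. KIF1A, a neuronal vesicle motor, had a log2 change of 0.23 (adjusted p = 0.0957), and passed in a fit with the replicate number as a block (adjusted p = 0.0109). KIF1C, a Golgi and vesicle motor, had one of 0.14 (adjusted p = 0.382), which was 0.29 and passed without 16 h replicate 1.

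Kinesin-2, which moves material out along cilia and carries other cargo, is made of KIF3A with KIF3B or KIF3C, and of KIFAP3. KIF3A had 7.36, 7.31 and 7.43 on vehicle arrays, 7.16, 7.34 and 7.38 at 4 h, 7.45, 7.33 and 7.32 at 6 h, and 7.60, 7.87 and 7.77 at 16 h. Every 16 h array was above all others (1.3-fold, log2 change 0.38 ± 0.08 SE, adjusted p = 0.00325). KIF3B had 8.40, 8.50 and 8.48 on vehicle arrays, 8.58, 8.61 and 8.54 at 4 h, 8.50, 8.70 and 8.68 at 6 h, and 8.70, 8.84 and 8.85 at 16 h, and its 16 h arrays lay above all vehicle and 4 h arrays and met the highest 6 h array (0.34 ± 0.07 SE, adjusted p = 0.00264). KIF3C had a log2 change of 0.20 (adjusted p = 0.145) and KIFAP3 of 0.07 (adjusted p = 0.416). Of the subunits, KIF3A and KIF3B thus passed on their brightest probe sets. KIF3A did not pass with its probe sets averaged (0.05), and its second probe set had a change of opposite sign, given with the other pairs.

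Conventional kinesin, the motor of mitochondria and many vesicles, has 3 heavy chain genes. KIF5C had 4.81, 5.04 and 5.02 on vehicle arrays, 5.14, 5.07 and 5.04 at 4 h, 4.99, 5.11 and 4.87 at 6 h, and 5.24, 5.31 and 5.36 at 16 h, with the 16 h arrays above all others (log2 change 0.35 ± 0.08 SE, adjusted p = 0.00461). KIF5B, the form of most tissues, averaged 10.52 ± 0.04 at 16 h against 10.48 ± 0.06 on vehicle arrays (SD, n = 3 each) on its brightest probe set (0.04 ± 0.06 SE, adjusted p = 0.635). KIF5A, a neuronal form, read close to the unspiked controls and had a log2 change of -0.12 (adjusted p = 0.645), which was 0.15 without vehicle replicate 1. In the kinesin-3 motors of endosomes, KIF16B had 0.05 (adjusted p = 0.663), and KIF13B 0.25 (adjusted p = 0.0543) as log2 changes at 16 h. KIF13A, which carries mannose 6-phosphate receptors, had -0.42 (adjusted p = 0.0569). Both lay close to the threshold. KIF13B passed without 4 h replicate 1 (0.25) or 16 h replicate 1 (0.34). Both genes passed in some further settings, among them the replicate number as a block (KIF13B 0.25, KIF13A -0.42). KIF13A passed with quantile normalisation (-0.48), and without 6 h replicate 1 or 2 (-0.42 each) or 16 h replicate 3 (-0.53), which made 2 transport falls.

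KIFC2, a minus-end motor studied mostly in mouse neurons, was the transport kinesin that fell, with 5.77, 5.88 and 5.98 on vehicle arrays, 5.86, 5.94 and 5.92 at 4 h, 5.33, 5.82 and 5.91 at 6 h, and 5.23, 5.38 and 5.10 at 16 h. The 16 h arrays lay below all vehicle and 4 h arrays and overlapped the lowest 6 h array, and the fall was 1.56-fold (log2 change -0.64 ± 0.13 SE, adjusted p = 0.00215). KIF17 and KIFC3 were too dim to test.

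Of the 13 kinesins of other roles, 9 were too dim to test, with mean log2 signals from 1.06 to 2.11, among them KIF7 and KIF27, which act at the cilium, and KIF24, which acts at centrioles. Of the other 4, 2 rose and 1 fell. KIF2A, a depolymerase of spindle poles and of growing neurites, had 7.22, 7.59 and 7.46 on vehicle arrays, 7.38, 7.61 and 7.64 at 4 h, 7.52, 7.38 and 7.43 at 6 h, and 7.62, 7.82 and 7.86 at 16 h. Here the 16 h arrays lay above all vehicle and 6 h arrays and met the 4 h range (0.34 ± 0.11 SE, adjusted p = 0.0201). Leaving out vehicle replicate 1, 16 h replicate 2 or 16 h replicate 3 took away this call (log2 change 0.24, 0.32 and 0.30). Unlike KIF2C it also works in cells that do not divide, and counted as mitotic it would make the class 9 down and 1 up. KIF9, a motor of motile cilia and flagella, had 8.68, 8.81 and 8.71 on vehicle arrays, 8.71, 8.61 and 8.66 at 4 h, 8.75, 8.89 and 8.72 at 6 h, and 8.58, 8.55 and 8.49 at 16 h. Its 16 h arrays lay below all others by a small step (-0.19 ± 0.07 SE, adjusted p = 0.0336). In 7 of 21 alternatives the call was lost, among them leaving out vehicle replicate 2 or 3 (log2 change -0.16 and -0.21) or 16 h replicate 2 or 3 (-0.20 and -0.17). In the fit over probe sets, KIF9 230701_x_at (-0.09, adjusted p = 0.361) and 228429_x_at (-0.14, adjusted p = 0.324) were not called. These and the brightest, 231319_x_at, are of the _x_at class, which can bind more than 1 transcript. Outside that class KIF9 had only 223778_at, too dim to test at a mean log2 signal of 1.45. KIF12, described in kidney and liver epithelia, did not pass (-0.23 ± 0.12 SE, adjusted p = 0.156). The 2 antisense RNAs bright enough to test did not pass, KIF23-AS1 at -0.26 ± 0.11 SE, adjusted p = 0.0904 and KIF9-AS1 at 0.06 ± 0.11 SE, adjusted p = 0.685.

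Most kinesin genes are read by several probe sets, and 21 second probe sets could be set beside their gene's brightest one at 16 h. Across all 53 tested member probe sets 12 rose and 16 fell (23.0% and 16.7% of all tested probe sets), and of the mitotic ones 12 of 16 fell and 0 rose. In 5 of the 21 pairs both were called the same way, in 1 they were called opposite ways, in 10 only one was called and in 5 neither. Both further probe sets of KIF1B rose (209234_at by 0.50 and 226968_at by 0.70 on the log2 scale). So did those of KIF3B (203943_at, 0.52 ± 0.09 SE, adjusted p = 0.000889) and KIF2A (203086_at, 0.58 ± 0.17 SE, adjusted p = 0.0166), while that of KIF22 fell (216969_s_at, -0.50 ± 0.13 SE, adjusted p = 0.011). This KIF22 probe set was dim, at a mean log2 signal of 2.89. The calls of KIF1B 209234_at and KIF2A 203086_at were lost without 16 h replicate 2 (0.41 and 0.51) or 3 (0.44 and 0.47), that of 209234_at also without vehicle replicate 3 (0.49).

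The pair that disagreed belongs to KIF21A, a kinesin that restrains microtubule growth at the cell cortex. Its brightest probe set 226003_at had 9.30, 9.63 and 9.68 on vehicle arrays, 9.56, 9.63 and 9.51 at 4 h, 9.45, 9.38 and 9.39 at 6 h, and 9.69, 9.85 and 9.97 at 16 h. The 16 h arrays were the highest, with almost no gap to the vehicle arrays (0.30 ± 0.10 SE, adjusted p = 0.0294), and leaving out vehicle replicate 1, 16 h replicate 2 or 16 h replicate 3 took away the call (log2 change 0.18, 0.29 and 0.24). Its second probe set 231875_at had 7.89, 7.20 and 7.51 on vehicle arrays, 6.83, 6.63 and 6.78 at 4 h, 6.93, 6.52 and 6.70 at 6 h, and 5.51, 5.15 and 5.92 at 16 h. Here the 4 h and 6 h arrays lay below all vehicle arrays and the 16 h arrays below all of these, a fall of 4-fold and the largest change of any member probe set (log2 change -2.00 ± 0.20 SE, adjusted p = 1.56e-05). At 4 h (-0.78 ± 0.20 SE, adjusted p = 0.149) and at 6 h (-0.81 ± 0.20 SE, adjusted p = 0.0879) the second probe set did not pass, although both passed without vehicle replicate 2 (log2 change -0.95 and -0.98) and with the trended and robust prior (adjusted p = 0.0499 and 0.0253). No annotation used here tells which transcript end each of the 2 probe sets reads.

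Further genes were split between probe sets. For KIFC2 the probe set 226792_s_at was 4.53 ± 0.09 at 16 h against 4.26 ± 0.13 on vehicle arrays (SD, n = 3 each) (log2 change 0.27 ± 0.10 SE, adjusted p = 0.0502), against -0.64 on the brightest, and it passed without vehicle replicate 1 (0.33) or 6 h replicate 1 (0.27). For KIF5B the probe set 201991_s_at had 10.43, 10.36 and 10.40 on vehicle arrays, 10.32, 10.30 and 10.26 at 4 h, 10.40, 10.26 and 10.10 at 6 h, and 9.91, 9.94 and 10.01 at 16 h, low at 16 h without overlap (-0.44 ± 0.08 SE, adjusted p = 0.000993), beside 0.04 on the brightest and 0.15 on 201992_s_at. For KIF3A the probe set 213623_at had a log2 change of -0.29 (adjusted p = 0.0612) against 0.38 on the brightest, and it passed without vehicle replicate 2 (-0.35), 6 h replicate 2 (-0.29) or 16 h replicate 3 (-0.36) and with quantile normalisation (-0.37). Its change was larger at 6 h (-0.52 ± 0.11 SE, adjusted p = 0.0584), which did not pass either. The 4 h, 6 h and 16 h arrays of this probe set all lay below every vehicle array. Neither probe set of KIF1A (0.23 and -0.21) or of KIF5A (-0.12 and 0.26) was called, and in both genes the signs were opposite. KIF5A 229921_at passed without 6 h replicate 2 (0.26). KIF2C fell on 211519_s_at (-0.47 ± 0.08 SE, adjusted p = 0.000827). KIF16B rose on 232083_at (0.53 ± 0.10 SE, adjusted p = 0.00194) and KIF3C rose on 203390_s_at (0.39 ± 0.08 SE, adjusted p = 0.00233), and neither these genes nor KIF2C had a call on the brightest probe set. The KIF3C probe set 203390_s_at was dim, at a mean log2 signal of 2.69. KIF20B 234744_x_at fell (-0.47 ± 0.14 SE, adjusted p = 0.0189) with 16 h signals below the unspiked controls of vehicle arrays, and lost the call without vehicle replicate 2 (-0.36) or 16 h replicate 3 (-0.38). Names ending in _s_at or _x_at, 30 of the 92, mark probe sets that can bind more than 1 transcript.

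**Figure D4:**
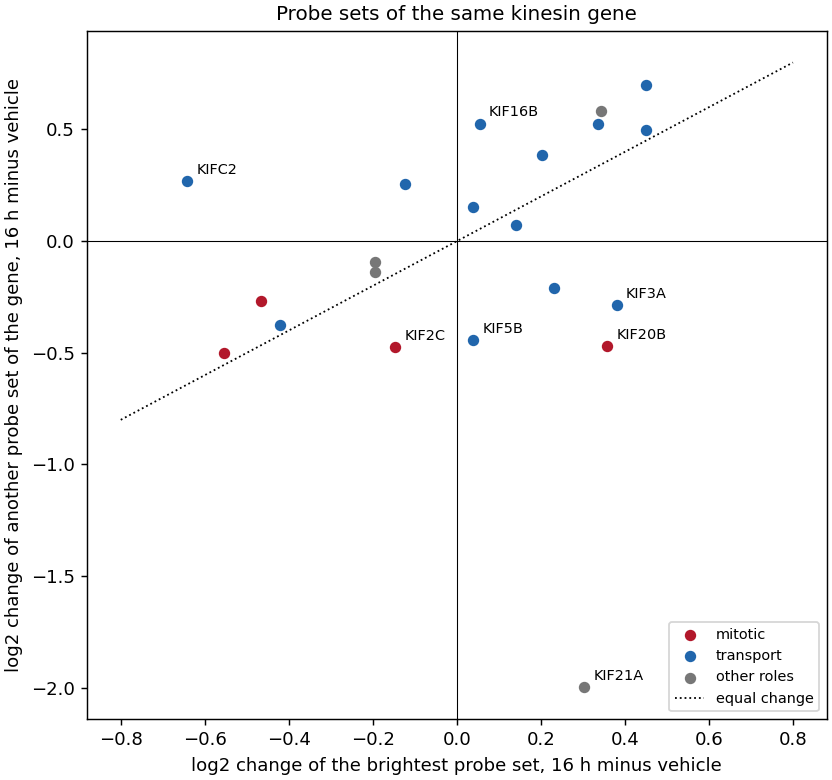
Log2 change at 16 h against vehicle of 21 further probe sets (vertical axis) against that of the same gene's brightest probe set (horizontal axis), coloured by class; the dotted line marks equal change. KIF21A lies far below the line at -2.00 against 0.30, and KIFC2, KIF3A, KIF20B, KIF1A, KIF5A and 1 probe set of KIF5B also lie in quadrants of opposite sign.

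**Figure D5:**
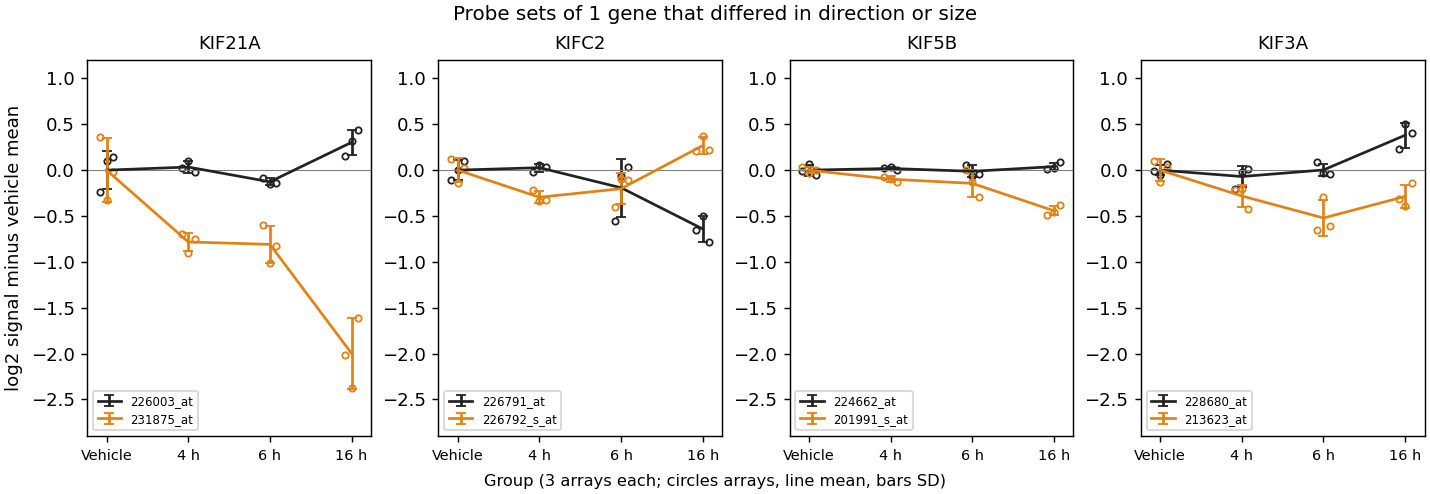
Log2 signal minus the vehicle mean for 2 probe sets each of KIF21A, KIFC2, KIF5B and KIF3A, by group (circles 3 arrays, line mean, bars SD). The probe sets of KIF21A part at 4 h already, those of KIFC2 and KIF5B lie furthest apart at 16 h, and those of KIF3A lie apart at 6 h and 16 h.

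Genes that work with mitotic kinesins also fell. Of 16 listed partners, all tested, 14 fell and 0 rose at 16 h, where 16.8% of all tested genes fell and 26.0% rose, with a median log2 change of -0.45 beside 0.05 over all tested genes. CENPE, the kinetochore kinesin that the symbol rule leaves out, averaged 6.19 ± 0.05 at 16 h against 6.79 ± 0.17 on vehicle arrays (SD, n = 3 each) (log2 change -0.61 ± 0.10 SE, adjusted p = 0.000466). PLK1, a kinase of mitotic entry and cytokinesis, fell 2.1-fold (-1.07 ± 0.15 SE, adjusted p = 0.000165), and TPX2, which targets Aurora A to the spindle, 1.9-fold (-0.93 ± 0.08 SE, adjusted p = 3.21e-06). BIRC5, a subunit of the passenger complex, fell 1.69-fold (-0.75 ± 0.07 SE, adjusted p = 5.86e-06). On 16 h arrays 1, 2 and 3 the median of the partners lay at -0.43, -0.37 and -0.49 from the vehicle mean, close to that of the mitotic kinesins. The lists were drawn up with earlier results of these data known, so their direction is no independent evidence.

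Of 12 regulators of cell cycle transcription, 2 rose and 4 fell, beside 26.0% and 16.8% of all tested genes. CDKN1A, the inhibitor p21, rose 8.72-fold (3.12 ± 0.10 SE, adjusted p = 1.7e-09). FOXM1, a factor of G2 and mitotic genes, fell 1.81-fold (-0.85 ± 0.07 SE, adjusted p = 3.51e-06) and TFDP1, a partner of E2F factors, fell 1.5-fold (-0.59 ± 0.07 SE, adjusted p = 3.89e-05).

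On the side of transport, 14 of 19 listed light chain and adaptor genes could be tested, and 3 rose and 3 fell, near the shares of all tested genes (26.0% and 16.8%). The light chains KLC1 (0.63 ± 0.11 SE, adjusted p = 0.000766) and KLC3 (0.59 ± 0.17 SE, adjusted p = 0.0143) rose, as did SPAG9, the adaptor JIP4 (0.72 ± 0.07 SE, adjusted p = 1.29e-05). KLC3 no longer passed without vehicle replicate 1 (0.42) or 16 h replicate 3 (0.43), KLC1 on a probe set outside the _s_at class (0.26) and SPAG9 with the mean of its probe sets (0.03). Of 22 tested genes of dynein and dynactin, which travel toward minus ends, 10 rose and 1 fell, beside 26.0% and 16.8% of all tested genes, with a median of 0.18. BICD1, a dynein adaptor, rose 2.47-fold (1.31 ± 0.10 SE, adjusted p = 2.28e-06). DYNC1I1, a dynein intermediate chain, rose by 0.42 (adjusted p = 0.00386) and DCTN2, a dynactin subunit, by 0.42 (adjusted p = 0.00161) on the log2 scale. On probe sets outside the _s_at class DYNC1I1 and DCTN2 did not pass (0.00 and 0.16).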

How the data were processed

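Affymetrix U133 Plus 2.0 arrays measured total RNA of 22Rv1 cells in 4 groups of 3 arrays. Per the labels' protocols the RNA was amplified from the 3' end of messages. The authors deposited log2 signals, from -0.49 to 13.77, and the submitters' processing notes name GCRMA, which corrects background and normalises and summarises probes, without a version. Array medians lay between 2.10 and 2.15, so a shift of most genes in 1 direction is hidden. The number of arrays limits the precision.

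Symbols came from the platform annotation: 1 symbol was given for 41097 probe sets, more than 1 for 1801 and none for 11777. With limma 3.58.1 in R 4.3.3, 1 linear model over the 12 arrays with the 4 groups as factors was fitted to 12635 genes (brightest probe set, mean log2 signal of at least 2.11) and, apart, to 27306 probe sets. It had 8 residual degrees of freedom. The 6 comparisons between groups were two-sided, with Benjamini-Hochberg adjustment over all genes or all probe sets and a threshold of 0.05. Rose, fell and called mean an adjusted p under 0.05, and SE is the model's. Single array measures had an exact permutation test. Array values were given for up to 8 called mitotic and up to 8 other called kinesins by size of change at 16 h, and up to 3 called genes were named per list, with CENPE. The members and lists were chosen with earlier results of these data known. The fit was tested on simulated data. Promoter sequences were RefSeq's, from 250 bases before to 50 after each start. Alternatives changed the scaling, the filter, the probe set rule, the variance prior, array weights, the arrays fitted, the replicate number as a block, the class of KIF2A and single arrays.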

Additional observations from a re-analysis of the deposited data

Results flagged for a closer look

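For 16 called kinesin genes and 1 second probe set, the difference from vehicle at 16 h was unlike that at an earlier time. The test was limma with Benjamini-Hochberg adjustment, the vehicle arrays being shared. The items had been picked because they were called at 16 h against vehicle. Their 16 h arrays were then tested again, against 6 h, and against 4 h where 6 h did not pass. That these items passed was therefore largely set by the choice and is no separate evidence. Of all tested genes, 25.1% were higher and 17.6% lower at 16 h against 6 h, and 24.8% and 16.1% against 4 h. Time, handling and the compound cannot be told apart in these differences. Each value is the log2 difference at 16 h minus the earlier one. Against 6 h, the mitotic kinesins KIF4A (-0.55, adjusted p = 7.24e-05), KIF11 (-0.53, adjusted p = 0.000106), KIF14 (-0.52, adjusted p = 0.000797), KIF15 (-0.48, adjusted p = 0.00126), KIF20A (-0.43, adjusted p = 0.00052) and KIF22 (-0.39, adjusted p = 0.00616) were lower. KIF18B, called at 16 h against vehicle but outside the 16, was also lower against 6 h (-0.45, adjusted p = 0.00141). The transport kinesins KIF1B (0.38, adjusted p = 0.00127), KIF3A (0.38, adjusted p = 0.00347) and KIF5C (0.31, adjusted p = 0.0087) were higher and KIFC2 (-0.45, adjusted p = 0.0168) was lower. Among kinesins of other roles KIF21A (0.43, adjusted p = 0.0048) and KIF2A (0.32, adjusted p = 0.028) were higher and KIF9 (-0.25, adjusted p = 0.011) was lower. The second probe set of KIF21A, 231875_at, was lower by a larger amount (-1.19, adjusted p = 0.000691). KIF23 (-0.46, adjusted p = 0.0136), KIF18A (-0.35, adjusted p = 0.00312) and KIF3B (0.22, adjusted p = 0.0295) differed from 4 h and did not pass the test against 6 h.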

How the results depend on the processing

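The count of mitotic kinesins that fell at 16 h against vehicle was 9 in the reported fit and 8 to 11 under every alternative run, and no alternative called one of them higher except that KIF2A counted as mitotic added 1 rise. The calls of KIF20A, KIF11, KIF22, KIF4A, KIF23, KIF14, KIF15, KIF18A, KIF1B, KIF3B and KIF5C were kept wherever these genes were tested. Over all named genes and second probe sets, 1266 values kept their direction and side of the threshold, 31 lost a call, 42 gained one and 7 changed sign. Signals near 2.14 on the log2 scale, the level of the unspiked controls, limit what can be said of KIF5A, KIF20B and KIFC1. The cause of the shifts given here was not tested.

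Quantile normalisation gave medians at 16 h against vehicle of -0.51 for mitotic and 0.07 for transport kinesins (reported -0.46 and 0.17), against 4 h of -0.47 and 0.09 (reported -0.41 and 0.20) and against 6 h of -0.48 and 0.05 (reported -0.41 and 0.15). It gave 2 transport falls at 16 h against vehicle (reported 1), and against 6 h 2 rises and 2 falls (reported 4 and 1). Its transport medians were 0.03 at 6 h and 0.02 between 6 h and 4 h (reported -0.01 and 0.00), and KIF1C 238477_at changed sign to -0.04. Median centring gave 0 genes in all at 6 h and 4 between 6 h and 4 h (reported 4 and 12), and a transport median of -0.02 at 6 h.

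With no filter 0 genes passed at 6 h, 0 kinesins of other roles fell at 16 h and the transport median between 6 h and 4 h was 0.03. The filter at the 75th percentile gave 90 genes at 4 h (reported 58), 1 of them a mitotic kinesin that fell, and 2 transport falls at 16 h. Its mitotic medians at 16 h were -0.50, -0.45 and -0.44 against vehicle, 4 h and 6 h, and its transport medians 0.06 at 4 h and -0.06 between 6 h and 4 h.

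Averaging all probe sets of each gene gave 79 genes at 6 h and 0 between 6 h and 4 h. Its mitotic medians were 0.00 at 4 h, and -0.36, -0.37 and -0.35 at 16 h against vehicle, 4 h and 6 h, and its transport medians 0.00 at 4 h, -0.03 between 6 h and 4 h, and 0.08 and 0.10 at 16 h against vehicle and 4 h. It gave 0 transport falls in the 3 comparisons of 16 h and 1 rise among other roles. KIF21A (-0.85), KIF5B (-0.08) and KIF20B (-0.03) changed sign with it, and KIFC2 (-0.19), KIF3A (0.05) and KIF9 (-0.11) lost their calls. Calls were gained by KIF2C (-0.31), KIF3C (0.29), KIF16B (0.29) and KIF13B (0.25). Where probe sets of other classes than _s_at and _x_at were preferred, the transport medians were 0.07 at 16 h and 0.03 between 6 h and 4 h, 0 kinesins of other roles fell at 16 h, 1 transport kinesin fell against 4 h (reported 2) and DYNC1I1 came to 0.00. With any probe set of a gene, 2 transport kinesins fell at 16 h.

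The trended and robust prior gave 136 genes at 4 h, 63 at 6 h and 59 between 6 h and 4 h, 2 transport falls at 16 h against vehicle and against 6 h, and 1 mitotic rise against 4 h. Array weights gave 89, 10 and 33 genes, 2 transport falls against 6 h, a mitotic median of -0.49 at 16 h, and transport medians of 0.02 at 6 h and -0.03 between 6 h and 4 h. Fits of only the arrays compared gave 0 genes at 6 h and 0 between 6 h and 4 h, 1 rise and 0 falls among other roles at 16 h, and 0 transport falls against 6 h.

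The replicate numbers were not used to pair arrays in the reported fit. Of 18 same-numbered pairs between groups, 5 had deviations that correlated above 0.1 (all 18 from -0.0045 to 0.235). In 16 of the 18 the correlation was higher than the mean with arrays of other numbers. The numbers may therefore carry a shared difference that the reported fit leaves out. With the replicate block 10 mitotic kinesins fell at 16 h, 6 transport kinesins rose and 2 fell, 1 mitotic kinesin rose against 4 h and 2 transport kinesins fell against 6 h. It gave calls for KIF1A, KIF13A, KIF13B and KIFC1 at 16 h, and for KIF21A 231875_at at 4 h and 6 h (adjusted p = 0.0477 and 0.0266).

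Leaving out 1 array at a time gave 25 to 70 genes at 4 h, 0 to 18 at 6 h and 2 to 14 between 6 h and 4 h. At 16 h against vehicle it gave mitotic medians of -0.53 to -0.40, 0 to 2 rises and 0 to 1 falls among other roles, and 1 to 2 transport falls. Against 4 h it gave 0 to 1 mitotic rises, 2 to 6 transport rises, 1 to 2 transport falls and mitotic medians of -0.43 to -0.37. Against 6 h it gave 3 to 7 transport rises, 0 to 2 transport falls and mitotic medians of -0.44 to -0.38. Transport medians ran from 0.11 to 0.22 at 16 h against vehicle, from 0.16 to 0.25 against 4 h and from 0.10 to 0.23 against 6 h, and from 0.01 to 0.04 at 4 h, from -0.02 to 0.01 at 6 h and from -0.03 to 0.00 between 6 h and 4 h. KIF5A ran from -0.32 to 0.15 and changed sign to 0.15 without vehicle replicate 1, and KIF16B came to 0.00 without 16 h replicate 3.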
